A study of Mus musculus with 9 samples.

Results

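The Dlk1-Dio3 domain is an imprinted region of mouse chromosome 12, and it holds one of the largest clusters of miRNA genes in the genome. Its members were chosen by name, as a list of 46 hairpins. Of these, 20 were among the 391 hairpins under which the count table listed at least 1 sequence tag, and 26 had no count in any library. Of 4118 counts under these hairpins, 4035 (98.0%) were in a single library, replicate 3 of the 3 libraries from BrdU-exposed cells, and the other 8 libraries together held 83. The list was drawn up with the values of these libraries known, so the levels below are a description and carry no test.

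Small RNA was sequenced in 9 libraries of B16F1, an established mouse melanoma line from C57BL/6J skin, grown in medium with fetal bovine serum. The Control group was left unexposed, the L-Tyr group received 5 mM L-tyrosine, the amino acid from which melanin is made, and the BrdU group received 2.5 µg/mL 5-bromo-2′-deoxyuridine, a thymidine analogue that enters DNA. Exposure lasted 72 h, and each group had 3 libraries, described in the series as independent replicates. All groups were described as the same 1 cell line, and no other line, tissue or animal was listed.

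In the Dlk1-Dio3 domain the protein-coding genes Dlk1, Rtl1 and Dio3 are expressed from the paternal chromosome, and the non-coding RNAs Meg3, the antisense transcript of Rtl1, Rian and Mirg from the maternal one. The miRNAs are cut from these maternal transcripts, which are read in 1 direction as a long series. They are known for high levels in embryo, placenta and brain. miRNAs of the part antisense to Rtl1 can pair fully with the Rtl1 mRNA and cleave it.

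The mature sequences of the arms that carried most of the counts in BrdU replicate 3 are shown 5′ to 3′ with the seed, bases 2 to 8, in capitals. The seed is the stretch through which a miRNA pairs with most of its targets. The sequences come from RefSeq (GRCm38.p6). The last 2 lines are shown because miR-412-5p was the only detected arm with no count in BrdU replicate 3, and because every tag under mir-380 differed from the mouse reference. Every tag of miR-376a-3p and part of those of miR-411-5p also differed from it, within the seed shown. The lines give the mouse reference and not the counted tags. miR-376c-3p and miR-487b-3p had 305 and 237 counts.
miR-379-5p: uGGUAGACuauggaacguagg
miR-431-5p: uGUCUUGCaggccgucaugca
miR-369-3p: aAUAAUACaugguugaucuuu
miR-411-5p: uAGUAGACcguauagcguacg
miR-127-3p: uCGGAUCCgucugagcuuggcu
miR-136-3p: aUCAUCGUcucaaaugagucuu
miR-376a-3p: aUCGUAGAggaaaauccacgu
miR-654-3p: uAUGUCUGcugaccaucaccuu
miR-299a-5p: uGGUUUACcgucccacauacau
miR-412-5p: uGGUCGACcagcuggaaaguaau
miR-380-3p: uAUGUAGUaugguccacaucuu

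No seed of the mouse reference occurred more than once among the 19 arms of BrdU replicate 3 that have an entry in the RefSeq table. miR-411-3p, with 10 counts in BrdU replicate 3, has the seed of miR-379-3p, which had 0 counts. The seed of miR-379-5p is also that of miR-1193-5p, whose hairpin had no count in any library.

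The share of a library's counts under the 46 hairpins was 0.000503% in Control replicate 1, 0.000236% in replicate 2 and 0.00114% in replicate 3. For L-Tyr it was 0.0249%, 0.0134% and 0.00401% in replicates 1 to 3. For BrdU it was 0.000584%, 0.00052% and 1.06%, the last with an exact 95% binomial interval of 1.03 to 1.09%. BrdU replicate 3 lay 42.5 times above the next library, L-Tyr replicate 1, and BrdU replicates 1 and 2 lay inside the range of the Control libraries. The L-Tyr libraries all lay above the Control libraries, with 36, 32 and 7 counts in replicates 1 to 3. In L-Tyr replicates 1 and 2 nearly all of these counts came from 3 tags, described below, that BrdU replicate 3 lacked. Interval bounds cover counting error only, since amplified reads are not independent molecules.

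The mean share was 0.000625% ± 0.000463 (SD, n = 3) in Control, 0.0141% ± 0.0105 in L-Tyr and 0.353% ± 0.611 in BrdU. Without replicate 3 the BrdU mean was 0.000552% ± 4.48e-05 (SD, n = 2), below the Control mean. The BrdU group thus held 4038 member counts with replicate 3 and 3 without it, against 5 in Control and 75 in L-Tyr.

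**Figure D1:**
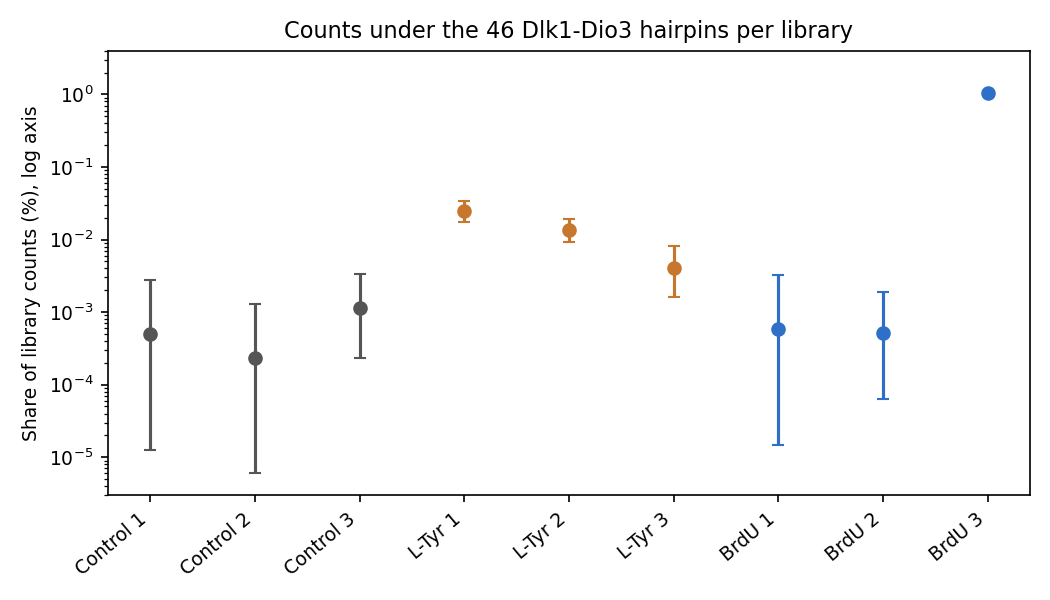
Share of each library's counts that fell under the 46 Dlk1-Dio3 hairpins, in percent on a log axis, with exact 95% binomial intervals as bars. BrdU replicate 3 sits at 1.06%, and no other library is above 0.0249%.

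Depth did not set this library apart. Total counts ran from 144452 (L-Tyr replicate 1) to 424122 (Control replicate 2), with 381324 in BrdU replicate 3, and BrdU replicate 2 was 1.01 times as deep as replicate 3. A count of 0 allows up to 3 counts, worth 7.07 to 20.8 CPM (counts per 1000000 counts of the library) across the libraries. All hairpin arms with a count numbered 375 in BrdU replicate 3 and 293 to 417 over the 9 libraries.

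Detection per hairpin followed the same order. In BrdU replicate 3, 19 of the 46 hairpins had a count, 19 had at least 3 and 18 at least 10. At the total of the shallowest library, 18.9 would still be expected. In the other 8 libraries 1 to 3 hairpins had a count. At 3 counts or more, 1 remained in L-Tyr replicate 1 (mir-412), 2 in L-Tyr replicate 2 (mir-379 and mir-487b) and 1 in L-Tyr replicate 3 (mir-136), and none in Control or in BrdU replicates 1 and 2.

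In mm9, 44 of the 46 hairpins were placed, on the plus strand between chr12:110801902-110801995 (mir-770) and chr12:110981925-110982005 (mir-410), a span of 180.1 kb. mir-544 and mir-666 were not placed. Gene features below come from the GENCODE vM1 annotation.

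The 5 hairpins antisense to Rtl1, a retrotransposon-derived gene needed in the placenta, held 1009 counts in BrdU replicate 3, 25.0% of the cluster's total. miR-431-5p (hairpin mmu-mir-431 at chr12:110828657-110828747, antisense to an exon of Rtl1) had 654 counts in BrdU replicate 3, 2 in BrdU replicate 2, 1 each in L-Tyr replicates 2 and 3, and 0 elsewhere. miR-127-3p (mmu-mir-127, chr12:110831056-110831125) had 176 counts in BrdU replicate 3 and 0 in each of the other 8. miR-136-3p (mmu-mir-136, chr12:110833537-110833598) had 161 in BrdU replicate 3, 6 in L-Tyr replicate 3 and 1 in Control replicate 2. These hairpins lie within 5 kb of each other, and their highest library was the same one. miR-433-5p had 18 counts, all in BrdU replicate 3. Between mir-127 and mir-136, mir-434 had 0 counts in all libraries on both arms.

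Against the 3 Control libraries together, miR-431-5p was at least 507-fold higher in BrdU replicate 3 and miR-127-3p at least 136-fold higher, with 3 counts over the Control group as the floor. For miR-136-3p, with 1 Control count, the ratio was 374 (counting interval 66.2 to 14878).

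The group around Mirg, the non-coding RNA at the distal end, comprised 33 hairpins and held the other 3026 counts of BrdU replicate 3 (75.0%). Of these hairpins, 15 were detected there and 16 in any library. miR-379-5p, whose hairpin mmu-mir-379 is the first of this group (chr12:110947270-110947335, between Rian and Mirg), had 1021 counts in BrdU replicate 3, the most of any arm of the cluster. It had 12 in L-Tyr replicate 2, 2 in Control replicate 3, 1 in L-Tyr replicate 1 and 0 in the other 5 libraries. Its ratio to the Control libraries was 1187, with a counting interval of 328 to 9816 that rests on 2 Control counts.

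miR-369-3p (mmu-mir-369, chr12:110981628-110981706, in an exon of Mirg) had 462 counts in BrdU replicate 3 and 0 in the other 8, at least 358-fold above Control. miR-376c-3p had 305 counts and miR-411-5p 291, again with 0 in every other library. For these arms, as for miR-379-5p, BrdU replicate 3 was the highest library. miR-487b-3p had 237 counts in BrdU replicate 3 and 19 in L-Tyr replicate 2. The 19 counts came from 1 tag of 14 nt that matched mm9 at 3 places, so its origin at mir-487b is uncertain.

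More than 100 counts in BrdU replicate 3 were also found for miR-376a-3p (144), miR-654-3p (131, with 1 in Control replicate 1) and miR-299a-5p (107). Below these came miR-495-3p (78), miR-382-5p (75), miR-409-3p (48), miR-381-3p (42), miR-134-5p (32), miR-380-3p (27), miR-369-5p (10), miR-411-3p (10) and miR-410-3p (6). For each of them no other library had more than 1 count. For miR-495-3p, 47 of the 78 counts came from a 16-nt tag that matched mm9 at 3 places.

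miR-412-5p was the exception. It had 34 counts in L-Tyr replicate 1 and 0 in the other 8 libraries, BrdU replicate 3 included. Its hairpin mmu-mir-412 (chr12:110981499-110981578) lies in an exon of Mirg, 49 bases before mir-369 (472 counts on both arms in BrdU replicate 3, 0 in L-Tyr replicate 1). All 34 counts carried 1 tag that matched mm9 at 1 place.

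No counts at all were found for the 6 hairpins from Meg3 to Rtl1 (mir-770, mir-673, mir-493, mir-337, mir-540 and mir-665), nor for the 2 in introns of Rian (mir-341 and mir-370). In BrdU replicate 3, 0 counts allow up to 7.87 CPM for each. A further list of 17 hairpin names from the same domain that were not members had no count in any library.

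**Figure D2:**
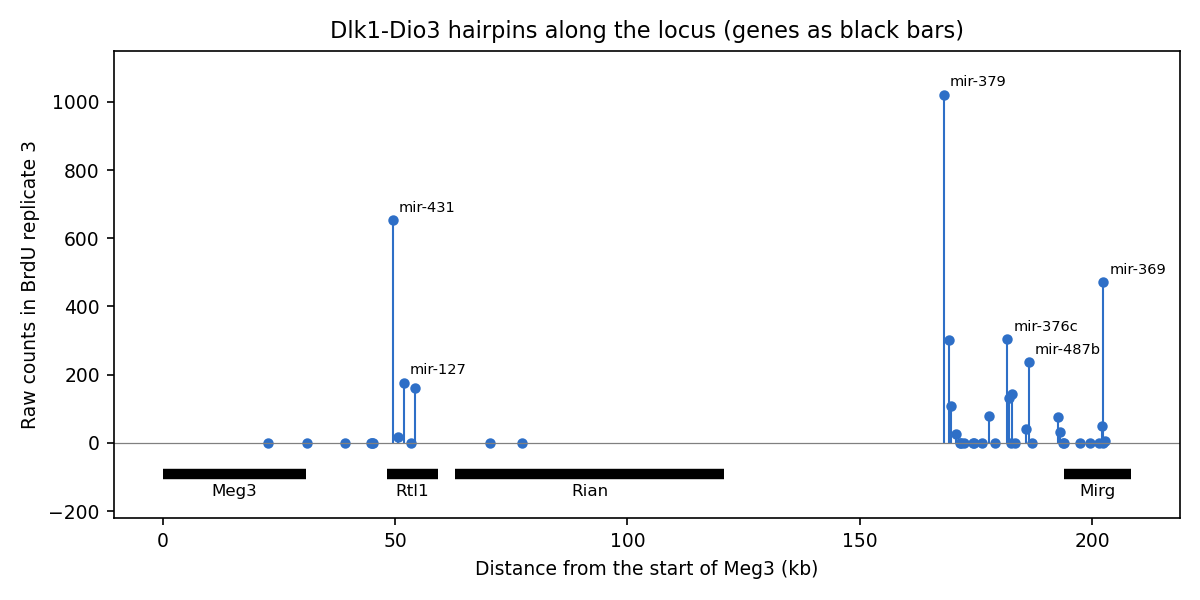
Raw counts in BrdU replicate 3 of the 44 placed hairpins against their distance from the start of Meg3 in kb, with the genes Meg3, Rtl1, Rian and Mirg as black bars. Counts occur antisense to Rtl1 and from mir-379 onward, and the hairpins beside Meg3 and in Rian are at 0.

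**Figure D3:**
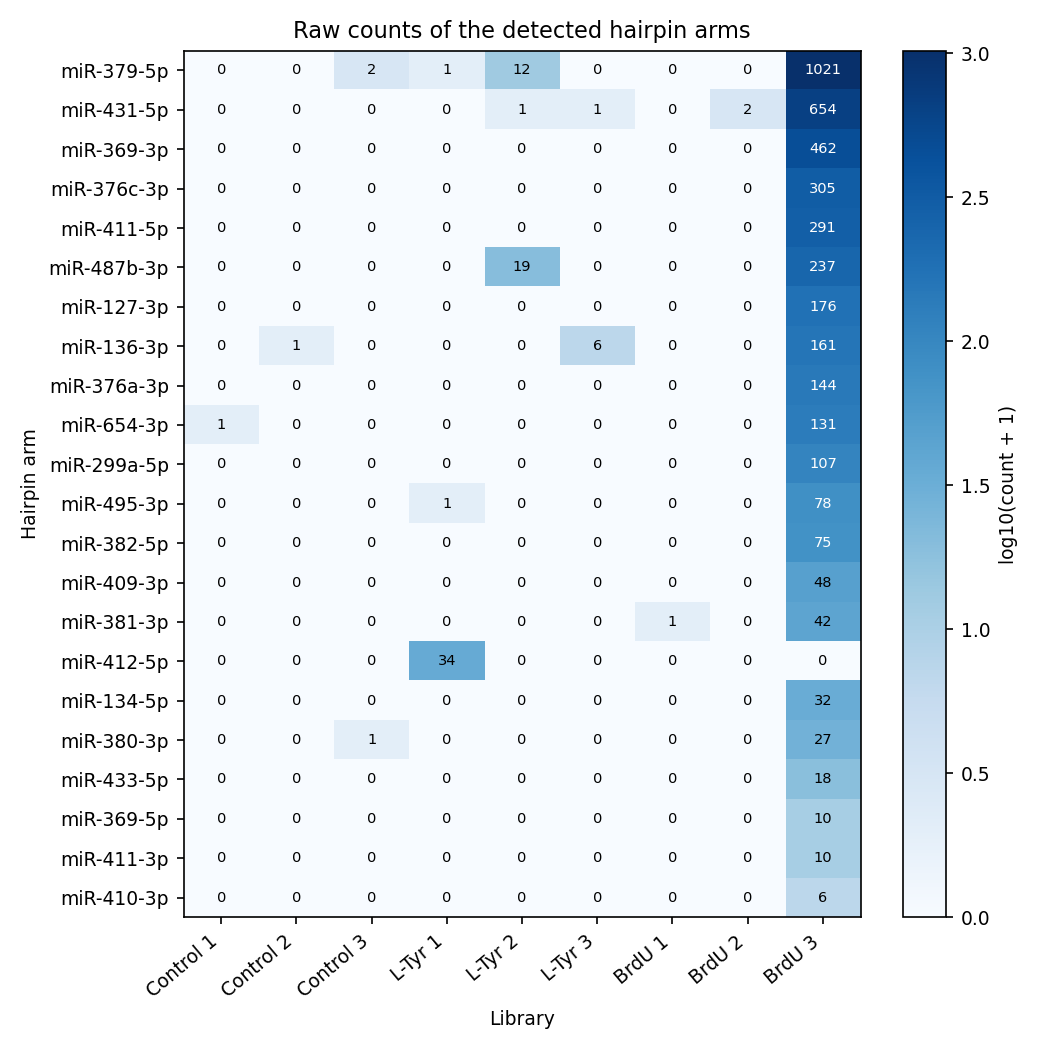
Raw counts of the 22 detected hairpin arms (rows) in the 9 libraries (columns), with shading by log10(count + 1). Of the 22 arms, 21 have counts in BrdU replicate 3, and 13 have counts there alone.

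The 83 counts outside BrdU replicate 3 fell into 2 kinds. Of these, 65 carried 3 tags that BrdU replicate 3 lacked (34 of mir-412, 19 of mir-487b and 12 of mir-379). The other 18 carried tags that BrdU replicate 3 also had, with at most 6 counts of a tag in a library.

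Concentration of a hairpin arm in 1 library was not rare in these data, so it was counted over all arms with 10 or more counts. Of 663 such arms, 69 (10.4%) had more than 50% of their summed CPM in BrdU replicate 3, and in the other libraries 28 to 47 arms (4.22% to 7.09%) did. Of the 21 Dlk1-Dio3 arms with 10 or more counts, 20 were concentrated in BrdU replicate 3 and 1, miR-412-5p, in L-Tyr replicate 1 (4.37% of all arms). At more than 80% of the summed CPM, BrdU replicate 3 held 52 of the 663 arms (7.84%), and 20 of these 52 (38.5%) were Dlk1-Dio3 arms. Most of these 20 reached 10 counts only through BrdU replicate 3, which fixed their concentration there in advance. The list was also drawn up with these values known, so nothing follows from the difference to all arms.

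**Figure D4:**
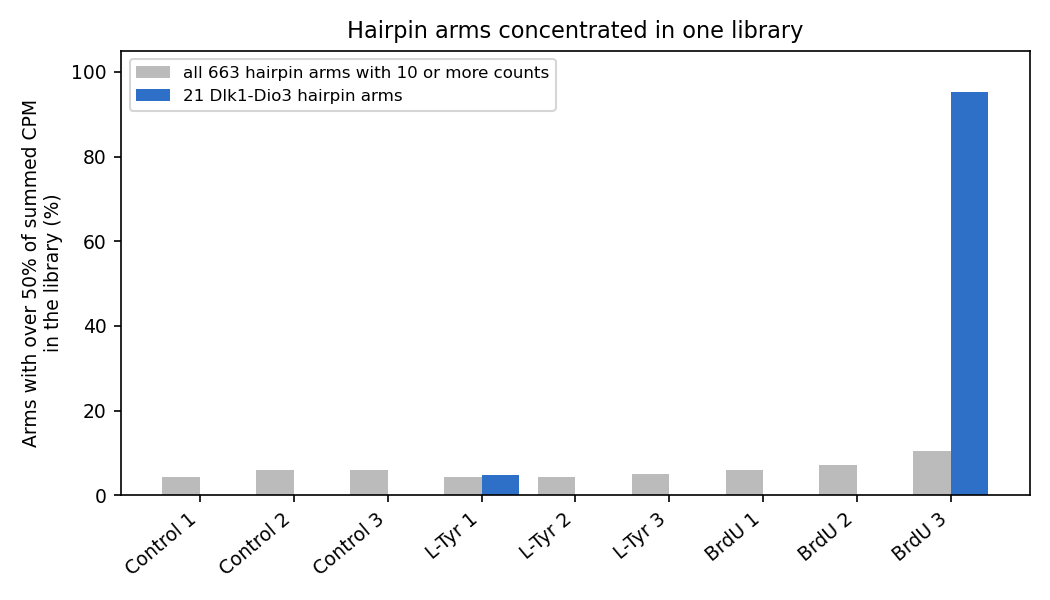
For each library, the percentage of hairpin arms with more than 50% of their CPM, summed over the 9 libraries, in that library, for all 663 arms with 10 or more counts (grey) and the 21 Dlk1-Dio3 arms among them (blue). In BrdU replicate 3 these are 10.4% of all arms and 20 of the 21 Dlk1-Dio3 arms, most of which reached 10 counts only through that library.

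The 5p and 3p arms of a hairpin are its left and right strands, of which one usually dominates. In BrdU replicate 3, 5p arms had 2208 counts and 3p arms 1827. Of the 18 hairpins with 10 or more counts there, 10 gave only 3p tags, 6 only 5p tags and 2 gave both. mir-369 had 97.9% of its 472 counts on the 3p arm (interval 96.1 to 99.0%), and mir-411 had 3.32% of its 301 counts there (interval 1.60 to 6.02%).

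The 53 tags under the members were 14 to 20 nt long, and tags of 20 nt held 80.2% of the member counts in BrdU replicate 3. The count table lists mostly tags of at most 20 nt, and the mature sequences shown above are all longer. These lengths were therefore not read as those of the miRNAs. A tag can begin away from the annotated 5′ end, which shifts its seed. The most frequent exact tag of miR-379-5p at each start is shown as DNA with those letters of the annotated seed that it keeps in capitals, to show how the seed moves.
miR-379-5p at the annotated start: tGGTAGACtatggaacgtag
miR-379-5p from 1 base later: GGTAGACtatggaacgtagg
miR-379-5p from 2 bases later: GTAGACtatggaacgtagg
miR-379-5p from 3 bases later: TAGACtatggaacgtagg

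These tags had 586, 130, 62 and 64 counts in BrdU replicate 3. Over all its tags, 65.6% of the miR-379-5p counts began at the annotated base (interval 62.6 to 68.5%). Over the arms with an annotated start, 69.9% of the counts began there, 20.6% 1 base later, 4.72% 2 bases later, 3.61% 3 bases later and 1.12% 1 base earlier. Arms varied around these values. All 176 counts of miR-127-3p began at the annotated base, as did 74.3% for miR-431-5p and 71.2% for miR-369-3p. For miR-136-3p the share was 17.4%, since 113 of 161 counts began 1 base later. For miR-382-5p it was 6.67% of 75 counts, with 44 beginning 2 bases later.

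Most tags matched the mouse hairpin letter by letter. Of the 53 tags, 43 matched exactly and held 84.0% of the member counts of BrdU replicate 3, 3 differed only within their last 3 bases (2.48%), and 7 differed further inside (13.5%, interval 12.5 to 14.6%). For all other hairpins with a reference, 0.397% of the counts in BrdU replicate 3 carried such an internal difference (interval 0.372 to 0.423%). In the other 8 libraries the same share for hairpins outside the cluster was 0.160 to 0.419%. The members of BrdU replicate 3 thus stood above both, by more than the counting error. These intervals do not cover the spread between hairpins, and the member counts with an internal difference came from only 7 tags. Internal differences were not confined to the cluster. Of hairpins outside it with 10 or more counts in BrdU replicate 3, 5 of 176 had more than 50% of those counts on tags with an internal difference (mir-294, mir-3962, mir-450b, mir-483 and mir-8117), against 3 of 18 members. In the other libraries 0 to 5 hairpins outside the cluster did, with 5 of 157 in L-Tyr replicate 2 and 5 of 149 in BrdU replicate 1. This count was therefore not particular to BrdU replicate 3. mir-3962 also passed the limit in Control replicates 1 and 2, L-Tyr replicate 2 and BrdU replicates 1 and 2. A further pair, chosen after their values were seen, did differ between libraries. Internal differences were carried by 26.4% of the 397 counts of mir-503 and 2.60% of the 3578 counts of mir-322 in BrdU replicate 3, and in the other 8 libraries 0 of 1504 and 0 of 12622 counts did.

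The internal differences lay in 4 hairpins. Substitutions are given with the mouse base first, then the position counted from 1 at the 5′ end of the mature sequence shown above, then the tag's base. All 144 counts of miR-376a-3p carried G4A and A6G together. All 28 counts under mir-380 carried G7A, 27 of them in BrdU replicate 3 and 1 in Control replicate 3. Of the 291 counts of miR-411-5p in BrdU replicate 3, 70 (24.1%, interval 19.3 to 29.4%) carried A5G and the rest had the mouse base. These positions all lie within the seed.

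All 305 counts of miR-376c-3p carried U68C, counted from 1 at the 5′ end of the RefSeq hairpin, which is base 16 of the tag that begins first and lies beyond the seed. A5G and A6G are A-to-G changes, and G4A, G7A and U68C are not. Whether these letters came from edited mouse RNA or from RNA of another source was not tested. The other 15 hairpins detected in BrdU replicate 3 had no internal difference.

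The labelled cell type was checked against miR-211, which is made from an intron of the melanocyte gene Trpm1. It was present in every library, with 1312 to 6812 counts. In BrdU replicate 3 it had 2057 counts (5394 CPM). The other 8 libraries had 7656 (BrdU replicate 1) to 28592 CPM. The line's marker was therefore present in BrdU replicate 3, at the lowest CPM of the 9. This rank depended on the scaling. Totals scaled by edgeR's TMM factors (0.735 in BrdU replicate 3 and 1.15 in BrdU replicate 2) put BrdU replicate 2 lower.

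Several markers of other cell types were also at their highest CPM in BrdU replicate 3. Of 8 stromal hairpins 7 had counts, and their sum was 205219 CPM in BrdU replicate 3 against 10538 to 26049 CPM in the other 8. mir-143, a smooth muscle and fibroblast miRNA, alone gave 193817 of these CPM (73907 counts, 19.4% of the library). Another 5 were also highest there, mir-10b had its lowest CPM of the 9 (7408 against 8893 to 17906), and mir-196a was at 0 in all. The share of mir-143 reduces the CPM of every other miRNA in this library. With totals scaled by the TMM factors, mir-10b was not lowest there. The endothelial mir-126a was at 5334 CPM against 53.1 to 312 CPM, with mir-126b at 0 in all libraries. The 4 erythroid hairpins summed to 5423 CPM against 0 to 595 CPM, and this sum came mostly from mir-451a, abundant in red blood cells (1462 counts against 0 to 65), and mir-144 (523 against 0 to 12). mir-486a and mir-486b, at 113 and 105 CPM, lay within the ranges of the other libraries (up to 239 and 268 CPM). The sums of these lists, though not every member, were highest in the library where the Dlk1-Dio3 hairpins were.

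The sums of other lists moved less or not at all, though some of their members moved in opposite directions. The leukocyte list (5 of 6 with counts) stood at 1104 CPM in BrdU replicate 3 against 118 to 630 CPM. Within it, mir-142a (306 counts, 802 CPM) and mir-223 (115 counts, 302 CPM) were highest there, against at most 15.6 and 44.8 CPM elsewhere. By contrast, mir-146a was at 0 there and at 110 to 554 CPM in the other libraries. mir-155 and mir-150 were also at 0 there. The epithelial list (6 of 7) stood at 2531 CPM against 186 to 1807 CPM, and mir-205, mir-200c and mir-141 were highest there (139, 413 and 343 counts). mir-203 had 70 counts there (184 CPM), level with the lowest of the other libraries (184 to 1239 CPM). mir-200a and mir-200b were at 0 there and counted in 1 other library each. The muscle list (3 of 8) was at 173 CPM against 0 to 69.2 CPM, from mir-1a-1 and mir-1a-2, with the other 6 at 0 there. The hepatic list (4 of 4) was at 682 CPM, inside the range of 106 to 794 CPM. Its members differed, with mir-192 highest there (663 against at most 636 CPM) and mir-122 within its range. mir-194-1 and mir-194-2 were lowest there, at 0 and 2.62 CPM against at least 11.8 and 16.5 CPM. The neural list (6 of 11) was at 3024 CPM, below the 4948 to 11700 CPM of the others. The part that other cells or their RNA had in the Dlk1-Dio3 counts was not tested, and fewer cells of a type cannot be told apart from less RNA per cell in such bulk samples.

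**Figure D5:**
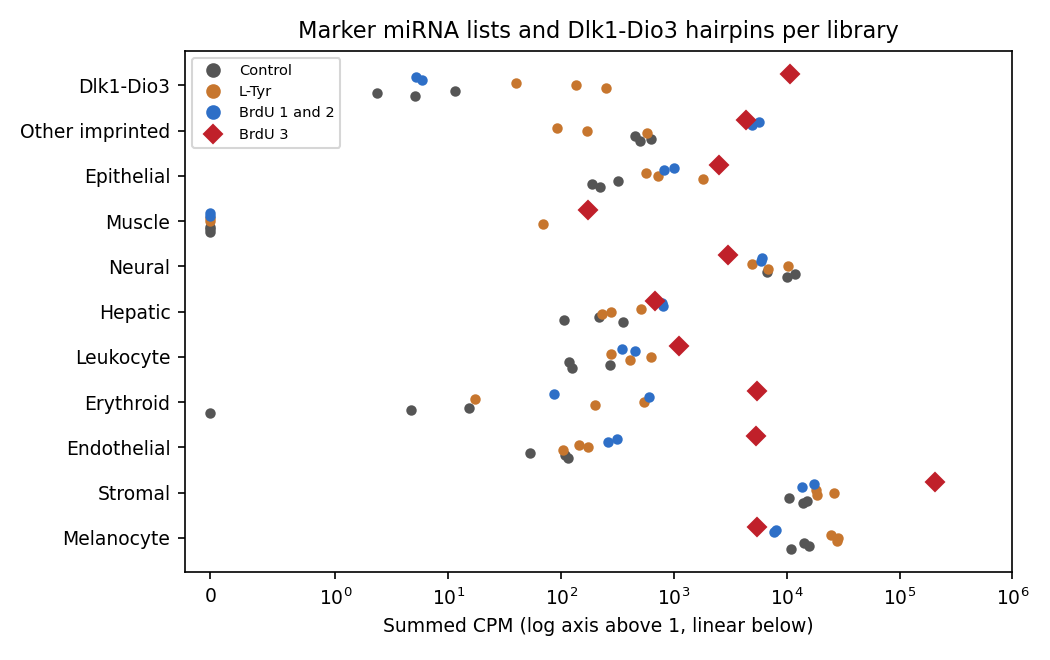
Summed CPM of each marker list, of other imprinted hairpins and of the Dlk1-Dio3 hairpins in the 9 libraries (log axis above 1 CPM, linear below), with BrdU replicate 3 as red diamonds. In CPM, that library is highest for the stromal, endothelial, erythroid, leukocyte, epithelial, muscle and Dlk1-Dio3 sets and lowest for the melanocyte and neural sets.

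Of 51 hairpins from other imprinted regions, 3 had counts. mir-335, from an intron of the imprinted gene Mest, had 100, 265 and 120 counts in Control, 83, 40 and 15 in L-Tyr, and 844, 2148 and 1568 in BrdU. All 3 BrdU libraries lay above all others for it, unlike for the Dlk1-Dio3 hairpins. mir-483, from an intron of Igf2, had 96 counts in BrdU replicate 3, 1 in L-Tyr replicate 3 and 0 elsewhere, and all 97 differed internally from the mouse hairpin. mir-466q had 22 counts, all in BrdU replicate 2.

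The conditions were compared by edgeR's quasi-likelihood test on hairpin arms, with p-values adjusted over all arms tested (Benjamini-Hochberg) and a call at an adjusted p below 0.05. After the filter on low counts, which needs counts in several libraries, L-Tyr against Control called 6 of 259 arms (2.32%), BrdU against Control 9 of 283 (3.18%) and BrdU against L-Tyr 6 of 252 (2.38%). No Dlk1-Dio3 arm passed that filter in any of the 3 comparisons, so none was tested.

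Without the filter, 9 of the 21 Dlk1-Dio3 arms with a count were called higher in BrdU than in Control, where 7.04% of the 668 arms tested were called higher and 7.49% in either direction. They were miR-379-5p, miR-431-5p, miR-369-3p, miR-376c-3p, miR-411-5p, miR-487b-3p, miR-127-3p, miR-376a-3p and miR-136-3p. miR-379-5p had 8.70 as its log2 fold change (SE 0.96, edgeR adjusted p = 5.68e-17), and miR-136-3p had 7.18 (SE 2.18, edgeR adjusted p = 0.0171). In both arms this rested on 1 of the 3 BrdU libraries. The list was chosen with this contrast known, so nothing follows from the count.

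Leaving out BrdU replicate 3 left 6 Dlk1-Dio3 arms with a count, none of them called by edgeR or below an unadjusted p of 0.05, while 19 of 625 arms (3.04%) were called. miR-379-5p then had -2.94 as its log2 fold change (SE 3.57, edgeR adjusted p = 0.628), from 2 counts in Control and 0 in BrdU. DESeq2's Wald test on all 6 libraries called 0 of the 21 arms, 0 also at an unadjusted p below 0.05, and 28 of 668 arms in all (4.19%). Here and below, an arm to which DESeq2 gave no p-value or adjusted p-value counted as not called. A DESeq2 count of 0 therefore does not mean that each arm was tested.

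For BrdU against L-Tyr without the filter, 6 of 22 Dlk1-Dio3 arms were called higher, where 4.11% of the 632 arms tested were called higher and 4.75% in either direction. Without BrdU replicate 3, 0 of 7 were called, and 0 had an unadjusted p below 0.05, where 2.08% of 577 arms were called. With all 6 libraries DESeq2 called 0 of the 22, with 0 at an unadjusted p below 0.05, and 1.9% of all arms. This comparison and the previous one share the BrdU libraries.

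For L-Tyr against Control without the filter, 0 of 8 Dlk1-Dio3 arms were called by edgeR, with 0 at an unadjusted p below 0.05, where 2.28% of 613 arms were called. DESeq2 also called 0 of the 8, with 1 at an unadjusted p below 0.05, and 2.94% of all arms. For miR-412-5p edgeR gave an adjusted p of 0.429, since its 34 counts were in 1 of the 3 L-Tyr libraries and 0 were in Control.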

How the data were processed

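The authors sequenced small RNA libraries (TruSeq Small RNA kit, Illumina HiSeq). Their deposited counts came out of BaseSpace's Small RNA app, version 1.0. The paper describes reads between 17 and 35 nt set against mm9 and miRBase 21, with a miRNA named only at full identity. The deposited entries also hold member tags of 14 and 16 nt, and tags that differ from the mouse hairpin. The counts are whole, not normalized, and listed for 6414 entries, mostly tags of at most 20 nt under a hairpin. Tags were summed by hairpin and arm (start in the hairpin under 35 for 5p, otherwise 3p). All 92 entries named for mature miRNAs of the cluster were at 0. The authors' normalized values and DESeq2 comparison tables (base means, fold changes, standard errors, p-values) were not used.

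The members and lists were chosen with earlier results of these data known. Arms were named when called in a comparison, when they passed the filter, or when among the 20 with most counts (10 or more in all); miR-411-3p and miR-410-3p beyond these were named after their values were seen. Each comparison used its 6 libraries in edgeR 4.0.16 (TMM factors, filterByExpr with a minimum count of 10, quasi-likelihood test; R 4.3.3, limma 3.58.1), with the SE as the fold change divided by the square root of F. The fit was tested on simulated data. DESeq2 1.42.0 was an alternative, in which arms without a p-value or adjusted p-value counted as not called. Shares have exact Clopper-Pearson 95% intervals (Python 3.11.15, scipy 1.17.1). Total counts were 144452 to 424122 per library. CPM use the library total without TMM. Alternatives were other scalings, no filter, a fit of all 9 libraries, sequence tags, a replicate block, and each library left out. Added after seeing the data were combinations of no filter with DESeq2's size factors, with the replicate block and with BrdU replicate 3 left out. Hairpin positions are exact matches of RefSeq hairpins to NCBIM37, the genome of mm9.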

Additional observations from a re-analysis of the deposited data

How the results depend on the processing

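In BrdU replicate 3, 19 hairpins were detected at 1 or 3 counts and 18 at 10 counts, and 20 arms were concentrated there at both the 50% and the 80% limit. The share of 1.06% became 0.889% with exact tags only, 1.44% of the TMM-scaled total and 1.10% without the most abundant tag. The mean BrdU share ran from 0.000552% to 0.529% when 1 BrdU library was left out. Members called were 0 in every alternative with the filter. Without it they were 9 for BrdU against Control (9 with DESeq2's size factors) and 6 for BrdU against L-Tyr (5 with DESeq2's size factors), and 0 without BrdU replicate 3. With all 6 libraries, a median of members could be given only without the filter. With 1 library left out, 1 or 2 members passed the filter in 4 fits of BrdU against L-Tyr, with medians of 4.13 to 5.40 (log2), and none was called.

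Of all arms, the 6 calls for L-Tyr against Control became 18 with DESeq2, 14 without the filter and 1 of single tags, the 9 for BrdU against Control became 28, 50 and 0, with 3 under total-count scaling, and the 6 for BrdU against L-Tyr became 12, 30 and 2, with 3 in a fit of all 9 libraries. Leaving out 1 library gave 0 to 10, 1 to 15 and 0 to 5 calls. A replicate block gave 6, 1 and 0 calls. Without the filter it called 2 of 21 members (and 11 of all 668 arms) for BrdU against Control and 0 members for BrdU against L-Tyr. Deviations of same-numbered libraries correlated between -0.109 and 0.039, and no library correlated best with its own number. With 3 libraries per group this cannot exclude a shared culture or run, and the labels give only the number. The cause of these changes in calls was not tested. At these depths, a hairpin under 7.07 to 20.8 CPM could go unseen.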
